A study of Homo sapiens with 12 samples.

Results

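The mRNAs of 9 genes that carry amino acids across the plasma membrane, or that form part of such a carrier, were followed across oxygen, pH and ribosome density in a human glioblastoma cell line. The genes were SLC7A5, SLC3A2, SLC7A11, SLC7A1, SLC1A3, SLC1A4, SLC1A5, SLC38A1 and SLC38A2. They were chosen by name, as the loci whose gene name held one of these symbols as a whole item, and each of the 9 matched exactly 1 of the 55598 loci in the deposited table and shared that locus with no other named gene. All 9 had a mean of at least 1 FPKM (fragments per kilobase of transcript, scaled to library size) over the 12 libraries, so all 9 were among the 12201 loci compared, and none was at 0 in any library.

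The cells were U87MG, a line derived from a glioblastoma, grown in DMEM with fetal bovine serum and then kept for 24 hours in 1 of 4 conditions. These were neutral normoxia (pH 7.4), acidotic normoxia (pH 6.0), neutral hypoxia (1% oxygen, pH 7.4) and acidotic hypoxia (1% oxygen, pH 6.0). For normoxia, the sources used here give no oxygen percentage. After ribosome density fractionation, 3 RNA pools were sequenced per condition, namely monosomes (with free mRNA), oligosomes and polysomes, as 1 library each. Replicates are absent, so the differences below are sizes with their counting error and carry no test. In bulk RNA, fewer cells of a type and less RNA per cell cannot be told apart.

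Amino acid transporters supply protein synthesis and redox metabolism, and several of them are exchangers, so that the import of one amino acid depends on the export of another. SLC7A5 is the leucine and large neutral amino acid exchanger LAT1, and SLC7A11 is the cystine-glutamate exchanger known as system xc-. Both are held in the membrane by the same partner, the glycoprotein heavy chain SLC3A2 (CD98). SLC1A5 and SLC1A4 exchange small neutral amino acids including glutamine and serine, SLC38A1 and SLC38A2 bring in glutamine and alanine together with sodium, SLC7A1 carries arginine and lysine, and SLC1A3 is the glial glutamate transporter. Many of these genes are known targets of the transcription factor ATF4, which acts with C/EBP proteins on a composite DNA element when amino acids are short.

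Promoter windows from RefSeq (build GRCh38.p14), covering 250 bases before to 50 bases after an annotated start, were found for 8 of the 9 genes, with 16 windows in all. Stretches that hold the core of the composite C/EBP-ATF element (TGATGNAA, searched on both strands) are shown because this element is the best known link between amino acid supply and these genes. The match is in capitals and each stretch reads 5′ to 3′ on the gene's own strand.
SLC3A2, chr11:62881725-62881748, plus strand: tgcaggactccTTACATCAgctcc
SLC7A1, chr13:29595663-29595692, minus strand: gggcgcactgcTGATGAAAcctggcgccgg
SLC1A3, chr5:36596357-36596386, plus strand: caggaaatgacTGATGCAAagcagggttaa
SLC1A4, chr2:64989381-64989410, plus strand: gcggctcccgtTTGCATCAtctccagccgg
SLC1A5, chr19:46784893-46784922, minus strand: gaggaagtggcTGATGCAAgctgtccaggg
SLC38A1, chr12:46266502-46266531, minus strand: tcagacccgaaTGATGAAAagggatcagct

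These letters were present in 6 of the 16 windows, 1 window for each of 6 genes, and in 3.62% of all 35116 RefSeq windows of the same length. In SLC3A2 and SLC1A4 they lie on the opposite strand, as TTACATCA and TTGCATCA. The E-box CACGTG, a site that MYC-type factors and other basic helix-loop-helix proteins can bind, was present in 1 window each of SLC7A5 and SLC1A5 and in 7.26% of all windows. The SLC1A5 window with the E-box also lies inside the gene.
SLC7A5, chr16:87869621-87869648, minus strand: gccggacgacgCACGTGctccgagctgg
SLC1A5, chr19:46787327-46787354, minus strand: gcgggagtggtCACGTGgacaggacggg
The hypoxia response core ACGTG, which is contained in the E-box on both strands, was present in 5 of the 16 windows and in 21.4% of all windows. The antioxidant response core TGACNNNGC was present in 5 of the 16 windows and in 13.3% of all windows. A match describes letters in the window and not a bound site.

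Each mRNA was summarised in each condition by its steady-state level and its translation efficiency. The steady-state level was the mean FPKM of the 3 fractions, weighted by the amount of RNA that the authors' factors assign to each fraction. Translation efficiency, after the series' own definition, was polysome FPKM over monosome FPKM, with 1 FPKM added to each. A change is the difference of these log2 values between conditions, centred on its median over the 12201 compared loci. The medians subtracted ran from -0.09 (efficiency, hypoxia at neutral pH) to 0.15 (steady-state mRNA, acidosis in hypoxia). An mRNA counted as changed by acidosis or by hypoxia when it differed at least 2-fold the same way in both pairs of conditions, and in the same direction in each fraction. Efficiency counted as changed at 1.5-fold the same way in both pairs. The pair of neutral normoxia with acidotic normoxia and the pair of neutral hypoxia with acidotic hypoxia share no library, whereas comparisons of hypoxia use the same libraries as those of acidosis.

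The steps between low FPKM values showed that 1 fragment in a transcript of 1 kb was worth 0.0567 to 0.228 FPKM, depending on the library. The monosome library of acidotic hypoxia stood apart, with a summed FPKM of 2164040, of which the 100 most abundant loci took 71.2%, against at most 1258250 and 68.7% in the other libraries. Of 7 glial and mesenchymal glioma markers in loci of their own, 3 averaged at least 1 FPKM, VIM at 5979, TIMP1 at 258 and FN1 at 8.08 FPKM. NES was at 0.79 FPKM, CHI3L1 at 0.10, the defining astrocyte filament GFAP at 0.21 and S100B at 0.013, so the labelled glial origin is not visible in these defining markers. Among markers of other cell types, 1 of 3 neuronal ones (SNAP25, 4.50 FPKM), 1 of 3 astrocytic ones (GJA1, 43.5), 1 of 3 leukocyte ones (CSF1R, 2.04) and 1 of 2 epithelial ones (EPCAM, 1.26) averaged above 1 FPKM, and their part in the results was not tested.

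**Figure D1:**
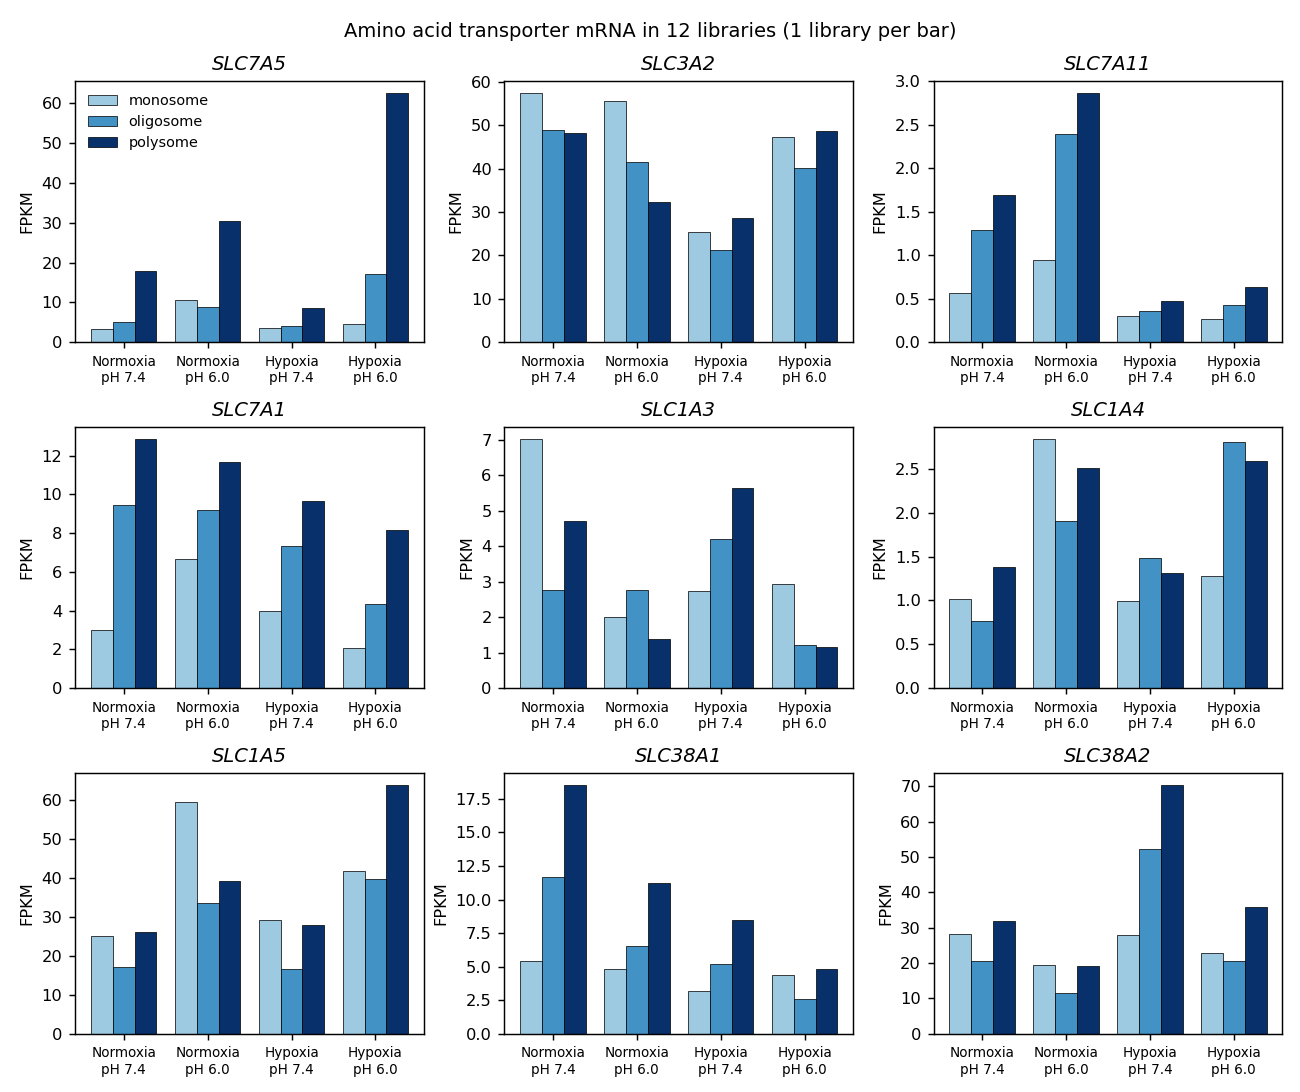
FPKM of the 9 transporter mRNAs (y axis, a separate scale for each gene) in the 4 conditions (x axis), with bars for the monosome, oligosome and polysome library of each condition and 1 library per bar. The polysome bar of SLC7A5 in acidotic hypoxia, at 62.5 FPKM, and the oligosome and polysome bars of SLC38A2 in neutral hypoxia, at 52.4 and 70.4 FPKM, stand above every other library of the same gene.

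SLC7A5 (chr16:87830023-87869488, minus strand, GENCODE release 29 on GRCh38) had the widest range of the 9 genes in polysomes. In neutral normoxia it was at 3.22 FPKM in monosomes, 4.96 in oligosomes and 18.0 in polysomes. In acidotic normoxia the same fractions held 10.6, 8.92 and 30.5 FPKM. Acid alone was thus accompanied by higher values in all 3 fractions. Neutral hypoxia gave 3.50, 4.06 and 8.53 FPKM, and acidotic hypoxia gave 4.61, 17.1 and 62.5 FPKM. Hypoxia alone had the lowest polysome value of the 4 conditions, and hypoxia with acid the highest.

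The steady-state level of SLC7A5 was 11.4 FPKM in neutral normoxia, 19.3 in acidotic normoxia, 6.08 in neutral hypoxia and 40.04 in acidotic hypoxia. Acidosis therefore went with a 1.68-fold higher level in normoxia (log2 0.75, counting SE 0.04) and a 5.22-fold higher level in hypoxia (log2 2.38, counting SE 0.05). The change in hypoxia exceeded that of 99.6% of the compared loci, and the change in normoxia that of 92.6%. Because the first of the pair stayed below 2-fold, SLC7A5 did not count as changed by acidosis under the rule. Hypoxia went with a change of -0.74 at neutral pH and of 0.91 at acid pH. Leaving out the monosome library that stood apart, with the monosome fraction of the other conditions, gave 2.61 for acidosis in hypoxia and 1.22 for hypoxia in acidosis. Leaving out the polysome fraction gave 1.18 for acidosis in hypoxia, 0.18 for hypoxia in acidosis and -0.13 for hypoxia at neutral pH. The monosome changes with hypoxia were 0.04 at neutral pH and -1.17 at acid pH, opposite in sign to the steady-state ones.

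The ratio of polysome to monosome mRNA for SLC7A5 was 4.51 in neutral normoxia, 2.72 in acidotic normoxia, 2.12 in neutral hypoxia and 11.3 in acidotic hypoxia. Each stress alone gave a lower ratio than neutral normoxia, by -0.68 for acidosis and -0.997 for hypoxia on the log2 scale. The combination gave a higher one, by 1.38 (counting SE 0.18). With polysomes set against oligosomes in place of monosomes, acidosis in normoxia gave 0.05, hypoxia at neutral pH -0.73, and the combination 0.13, so the direction for acidosis alone turned and the higher efficiency of the combination rested on the monosome values. Set against oligosomes in the same way, acidosis in hypoxia gave 0.90 in place of 2.43, and hypoxia in acidosis 0.09 in place of 2.09. In that combination the monosome library held 2.36% of SLC7A5 mRNA, against 20.5% of all RNA by the authors' factors.

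SLC3A2 (chr11:62856102-62888875, plus strand), the shared heavy chain, was the most abundant of the 9 mRNAs on average. Its monosome, oligosome and polysome values were 57.3, 48.9 and 48.3 FPKM in neutral normoxia and 55.6, 41.6 and 32.4 in acidotic normoxia. They were 25.3, 21.3 and 28.7 FPKM in neutral hypoxia and 47.3, 40.2 and 48.7 in acidotic hypoxia. Neutral hypoxia was thus the lowest condition in every fraction. Relative to the median locus, acidosis went with lower SLC3A2 in all 3 fractions in normoxia and with higher SLC3A2 in all 3 in hypoxia. The normoxic monosome change was close to none, at -0.05, beside -0.23 in oligosomes and -0.52 in polysomes. The steady-state changes were -0.33 (counting SE 0.04) and 0.69 (counting SE 0.05), both under 2-fold. Hypoxia went with -0.87 at neutral pH and with 0.15 at acid pH. Translation efficiency of SLC3A2 was close to 1 or below it in every condition, at ratios of 0.845, 0.589, 1.13 and 1.03 in the order of conditions above.

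SLC7A11 (chr4:138164097-138242349, minus strand) was the least abundant of the 9. It was at 0.56, 1.29 and 1.69 FPKM in the monosome, oligosome and polysome libraries of neutral normoxia and at 0.95, 2.40 and 2.86 in acidotic normoxia. Neutral hypoxia gave 0.30, 0.36 and 0.47 FPKM, and acidotic hypoxia 0.27, 0.42 and 0.63. All 6 hypoxic libraries were at or below 0.63 FPKM and lay below the normoxic library of the same fraction. Its mean of 1.02 FPKM reached the bound of 1 FPKM for comparison only through normoxic libraries. Lower values in hypoxia are therefore not independent of its being among the compared loci. Hypoxia went with a steady-state change of -0.70 at neutral pH and of -1.31 at acid pH (counting SE 0.05 and 0.06). The pseudocount of 1 FPKM compresses these values: with 0.1 FPKM in its place, SLC7A11 and SLC38A1 both counted as lower in hypoxia. An antisense transcript, SLC7A11-AS1, overlaps this gene, and whether the authors' counting used strand is not stated in the labels.

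The light chains could be set against their shared heavy chain within each library, where library scaling cancels. SLC7A5 stood at 0.373 of SLC3A2 in polysomes of neutral normoxia, 0.943 in acidotic normoxia, 0.297 in neutral hypoxia and 1.28 in acidotic hypoxia. Both acidotic ratios in polysomes were above both neutral ones. In oligosomes the same ratio was 0.101, 0.215, 0.190 and 0.426, again higher with acid at either oxygen level. In monosomes it was 0.056, 0.190, 0.139 and 0.098, so acid went with a higher ratio in normoxia and a lower one in hypoxia. SLC7A11 stood at 0.035, 0.088, 0.016 and 0.013 of SLC3A2 in polysomes, and here both hypoxic ratios were below both normoxic ones.

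**Figure D2:**
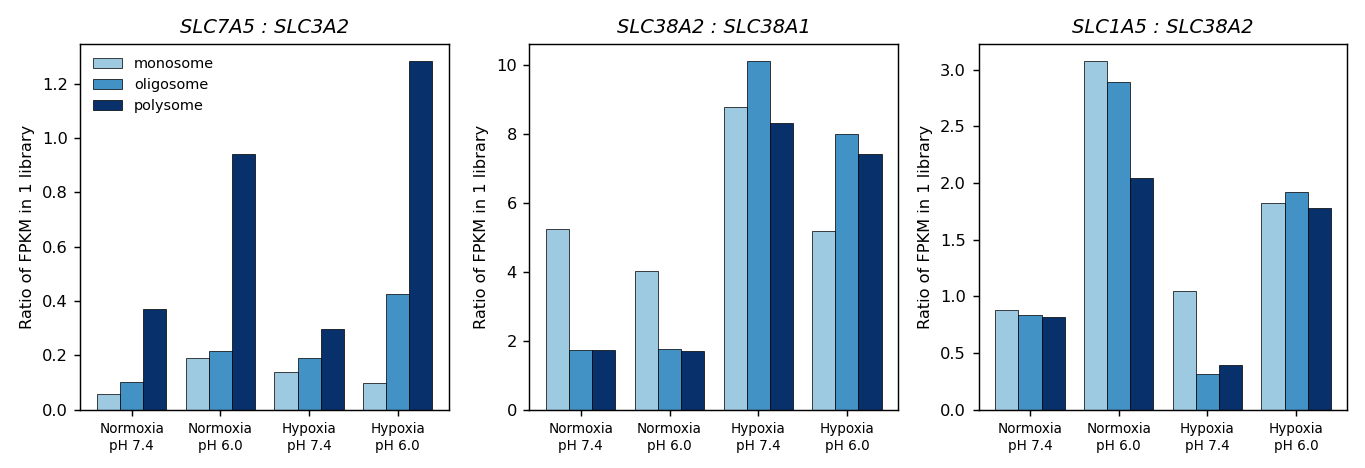
Ratio of FPKM between 2 transporters in the same library (y axis) in the 4 conditions (x axis), with bars for the monosome, oligosome and polysome libraries, 1 library per bar. SLC7A5 to SLC3A2 in polysomes is highest in acidotic hypoxia (1.28), SLC38A2 to SLC38A1 in polysomes is 8.33 and 7.43 in hypoxia against 1.73 and 1.71 in normoxia, and SLC1A5 to SLC38A2 is at least 1.78 in all 6 acidotic libraries.

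SLC7A1 (chr13:29509410-29595688, minus strand), the arginine and lysine carrier, differed by less than 2-fold in steady-state level. Its polysome values were 12.9 FPKM in neutral normoxia, 11.7 in acidotic normoxia, 9.66 in neutral hypoxia and 8.16 in acidotic hypoxia. Oligosomes gave 9.46, 9.20, 7.36 and 4.33 FPKM in the same order, and monosomes gave 2.99, 6.66, 3.97 and 2.08. The oligosome and polysome values were thus lower in each hypoxic condition than in either normoxic one, while the monosome value was highest in acidotic normoxia. Steady-state changes were 0.01 and -0.49 for acidosis and -0.27 and -0.77 for hypoxia. Its polysome to monosome ratio was 3.47 in neutral normoxia and 1.65 in acidotic normoxia (log2 -1.02, counting SE 0.12), a change that was -0.03 when polysomes were set against oligosomes. Hypoxia went with a change in efficiency of -0.60 at neutral pH and 0.88 at acid pH. The latter was -0.05 on the RNA-factor scale, that is FPKM multiplied by the authors' factor and changes left without centring. That scale moved the median locus by -0.58 in the same comparison. Set against oligosomes, the changes with hypoxia were -0.03 and 0.42, neither of them 1.5-fold.

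Among the 3 SLC1 genes, SLC1A5 (chr19:46774883-46788594, minus strand), the glutamine exchanger, was higher with acid in all 3 fractions at both oxygen levels. It was at 25.0, 17.2 and 26.2 FPKM in the monosome, oligosome and polysome libraries of neutral normoxia and at 59.4, 33.5 and 39.2 in acidotic normoxia. In neutral hypoxia these were 29.2, 16.5 and 27.8 FPKM, and in acidotic hypoxia 41.7, 39.5 and 63.7. In each fraction the lower acidotic library was above the higher neutral one, and the share of all loci with this order was not counted. The steady-state changes with acidosis were 1.70-fold in normoxia (log2 0.77, counting SE 0.05) and 1.97-fold in hypoxia (log2 0.98, counting SE 0.05), just under the 2-fold bound. They exceeded the changes of 92.9% and 92.3% of the compared loci. Without the monosome fraction the second was 1.15. Hypoxia went with small changes, 0.13 and 0.35.

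The efficiency of SLC1A5 differed with acid in opposite directions at the 2 oxygen levels. The polysome to monosome ratio was 1.05 in neutral and 0.666 in acidotic normoxia (log2 -0.60), and 0.955 in neutral and 1.52 in acidotic hypoxia (log2 0.68). Set against oligosomes, the second of these was -0.04 and so did not keep its direction.

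SLC1A4 (chr2:64988477-65023865, plus strand), which carries serine and other small neutral amino acids, was a low mRNA that was also higher with acid. Its values in monosomes, oligosomes and polysomes were 1.02, 0.76 and 1.38 FPKM in neutral normoxia and 2.84, 1.91 and 2.51 in acidotic normoxia. Neutral hypoxia gave 0.99, 1.48 and 1.31 FPKM, and acidotic hypoxia 1.28, 2.81 and 2.60. Acidotic values were above neutral ones in every fraction at both oxygen levels, and the 2 pairs of conditions gave steady-state changes of 0.67 and 0.39. Counting alone gives SEs of 0.15 for each of these changes. Its smallest value stood on 6.63 to 24.8 fragments, depending on which annotated transcript is assumed, and its changes in efficiency, with counting SEs of 0.39 to 0.47, were all within 2 SEs of no change.

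SLC1A3 (chr5:36606355-36688334, plus strand), the glial glutamate transporter, went the other way. Neutral normoxia gave 7.02, 2.75 and 4.71 FPKM in monosomes, oligosomes and polysomes, and acidotic normoxia 2.01, 2.77 and 1.39. Neutral hypoxia gave 2.74, 4.20 and 5.65 FPKM, and acidotic hypoxia 2.93, 1.22 and 1.14. Polysome values were thus lower in both acidotic conditions, whereas monosomes in hypoxia and oligosomes in normoxia were nearly the same at both pH values. The steady-state changes with acidosis were -0.78 in normoxia and -1.31 in hypoxia (counting SE 0.08 and 0.09), lower than those of all but 4.70% and 2.79% of the compared loci. With the oligosome fraction left out, SLC1A3 counted as lower in acidosis. Its polysome to monosome ratio was 0.712, 0.794, 1.78 and 0.546 in the order neutral normoxia, acidotic normoxia, neutral hypoxia and acidotic hypoxia. The high ratio in neutral hypoxia (log2 change 1.41) was -0.22 when set against oligosomes. Acidosis in normoxia gave an efficiency change of 0.21 against monosomes and of -1.20 against oligosomes.

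The sodium-coupled pair SLC38A1 and SLC38A2 are neighbours on chromosome 12, at chr12:46183063-46270017 and chr12:46358189-46372867, both on the minus strand and 88.2 kb apart. SLC38A1 was at 5.40, 11.7 and 18.5 FPKM in monosomes, oligosomes and polysomes of neutral normoxia and at 4.80, 6.55 and 11.2 in acidotic normoxia. It was at 3.18, 5.18 and 8.45 FPKM in neutral hypoxia and at 4.41, 2.57 and 4.82 in acidotic hypoxia. In oligosomes and polysomes the order was neutral normoxia, acidotic normoxia, neutral hypoxia and acidotic hypoxia from highest to lowest. Steady-state changes of SLC38A1 were -0.64 and -0.66 for acidosis and -0.98 and -0.99 for hypoxia (counting SE 0.08 to 0.11), with each pair nearly equal, and with the hypoxia pair just under 2-fold. In the combination of both stresses the level was 3.11-fold lower than in neutral normoxia (log2 -1.64, counting SE 0.10).

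SLC38A2 differed from its neighbour in the direction of its response to hypoxia. It was at 28.3, 20.5 and 31.98 FPKM in monosomes, oligosomes and polysomes of neutral normoxia and at 27.9, 52.4 and 70.4 in neutral hypoxia. At acid pH it was at 19.3, 11.6 and 19.2 FPKM in normoxia and at 22.9, 20.6 and 35.8 in hypoxia. Hypoxia thus went with higher oligosome and polysome values at either pH, and acid with lower values in every fraction at either oxygen level. The steady-state changes were 1.09 and 0.75 for hypoxia and -0.72 and -1.07 for acidosis (counting SE 0.05 to 0.07). In acidotic hypoxia the level was 29.6 FPKM, against 27.4 in neutral normoxia, a change of 0.02.

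SLC38A2 was the member whose efficiency counted as changed by hypoxia. The polysome to monosome ratio was 1.12 in neutral normoxia and 2.47 in neutral hypoxia (log2 1.23, counting SE 0.15), and 0.993 in acidotic normoxia and 1.54 in acidotic hypoxia (log2 0.67, counting SE 0.19). This call was lost when polysomes were set against oligosomes, with changes of -0.17 and 0.04. It was also lost on the RNA-factor scale, with 0.84 and -0.10, where the median locus itself moved by -0.27 and -0.58.

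Within each library, SLC38A2 stood at 1.73 and 1.71 times SLC38A1 in the polysomes of neutral and acidotic normoxia and at 8.33 and 7.43 times SLC38A1 in those of neutral and acidotic hypoxia. In oligosomes the ratio was 1.75 and 1.77 in normoxia and 10.1 and 8.01 in hypoxia. The 4 hypoxic ratios in these fractions thus lay between 7.43 and 10.1, and the 4 normoxic ones between 1.71 and 1.77. In monosomes the ratio was 5.25 and 4.02 in normoxia and 8.77 and 5.19 in hypoxia, so the groups overlapped there. SLC1A5, which also carries glutamine, stood at 0.819 and 0.395 of SLC38A2 in the polysomes of neutral normoxia and neutral hypoxia and at 2.04 and 1.78 times SLC38A2 in those of acidotic normoxia and acidotic hypoxia. All 6 acidotic libraries had a ratio of at least 1.78, and all 6 neutral ones had a ratio of at most 1.04. Fractions of the same condition are not replicates of it. How often other pairs of genes separate the conditions in these ways was not counted.

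**Figure D3:**
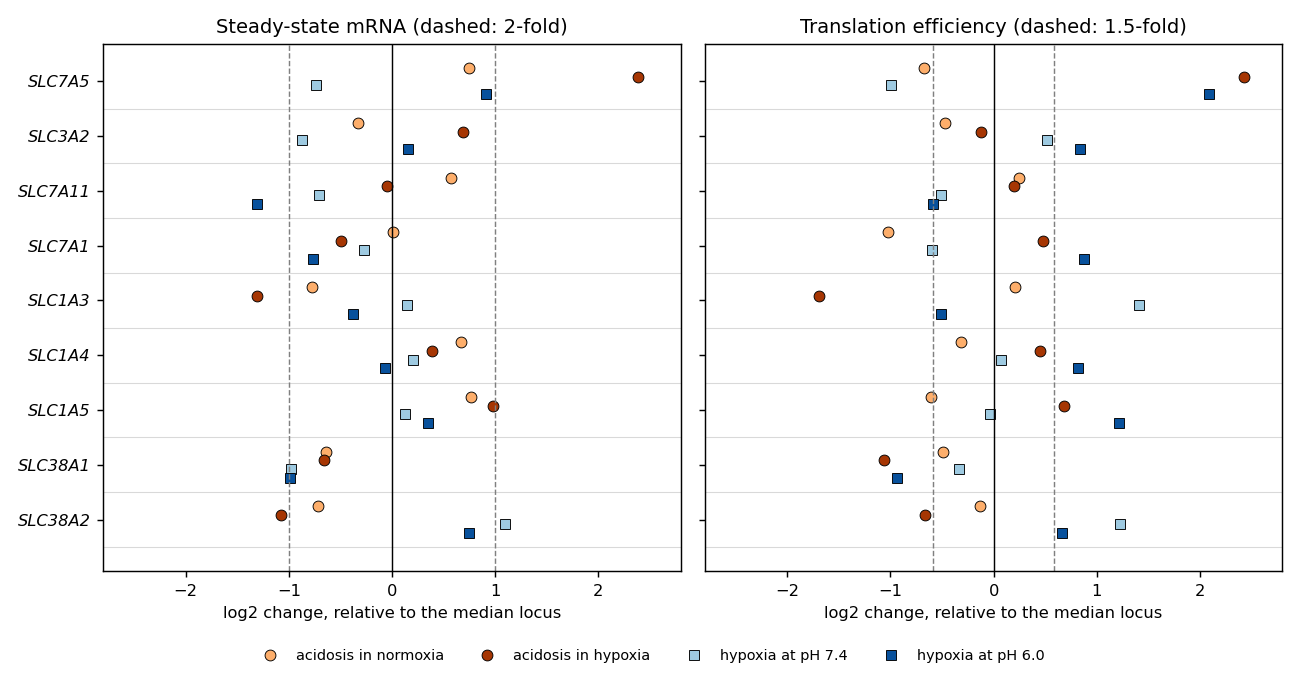
Log2 change of steady-state mRNA (left) and translation efficiency (right) on the x axis for each of the 9 genes on the y axis, relative to the median locus, with circles for acidosis, squares for hypoxia and dashed lines at 2-fold and 1.5-fold; each point compares 1 condition with 1 other. Acidosis in hypoxia for SLC7A5 lies farthest to the right in both panels (2.38 and 2.43), and the squares of SLC38A1 lie left of 0 and those of SLC38A2 right of it.

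Counted by the rule, 0 of 9 mRNAs were higher in acidosis in both pairs and 0 of 9 were lower, where 1.22% and 0.238% of all compared loci were. In hypoxia 0 of 9 were higher and 0 of 9 lower, where 2.16% and 0.91% of compared loci were. At these background shares, a count of 0 among 9 genes carries little information. Efficiency was higher in acidosis for 0 of 9 and lower for 0 of 9, where 5.73% and 6.67% of loci were. In hypoxia it was higher for 1 of 9 (SLC38A2) and lower for 0 of 9, where 8.78% and 10.1% of loci were, so the count is near the background.

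Acidotic hypoxia was also compared directly with neutral normoxia, a single pair of conditions. The steady-state level was at least 2-fold higher, with one direction in all fractions, for 2 of 9 genes, SLC7A5 (3.13-fold) and SLC1A5 (2.16-fold), and lower for 2 of 9, SLC38A1 and SLC1A3 (log2 -1.17). The background shares were 11.9% and 12.5%. On the RNA-factor scale, where the median locus moved by -0.39, SLC1A5 was at 0.71 and was no longer 2-fold higher. Efficiency was at least 1.5-fold higher for 2 of 9, SLC7A5 and SLC1A5, and lower for 1 of 9, SLC38A1 (log2 -1.45), where 27.8% and 29.8% of loci were. Set against oligosomes, SLC7A5, SLC1A5 and SLC38A1 were at 0.13, 0.09 and 0.09, and none of the 3 calls was left. The median change over the 9 genes was -0.18 for mRNA and 0.34 for efficiency, where the middle 80% of compared loci ran from -1.18 to 1.23 and from -1.60 to 1.33.

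The members did not move as a group in the single pairs either. With acidosis, 5 of 9 mRNAs were above the median locus in normoxia and 4 of 9 in hypoxia, and with hypoxia 4 of 9 were above it at each pH. Efficiency with acidosis in normoxia was below the median locus for 7 of 9 genes, with a median of -0.47. With hypoxia in acidosis, it was above the median locus for 6 of 9, with a median of 0.82. Both of these comparisons use the acidotic normoxia libraries.

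**Figure D4:**
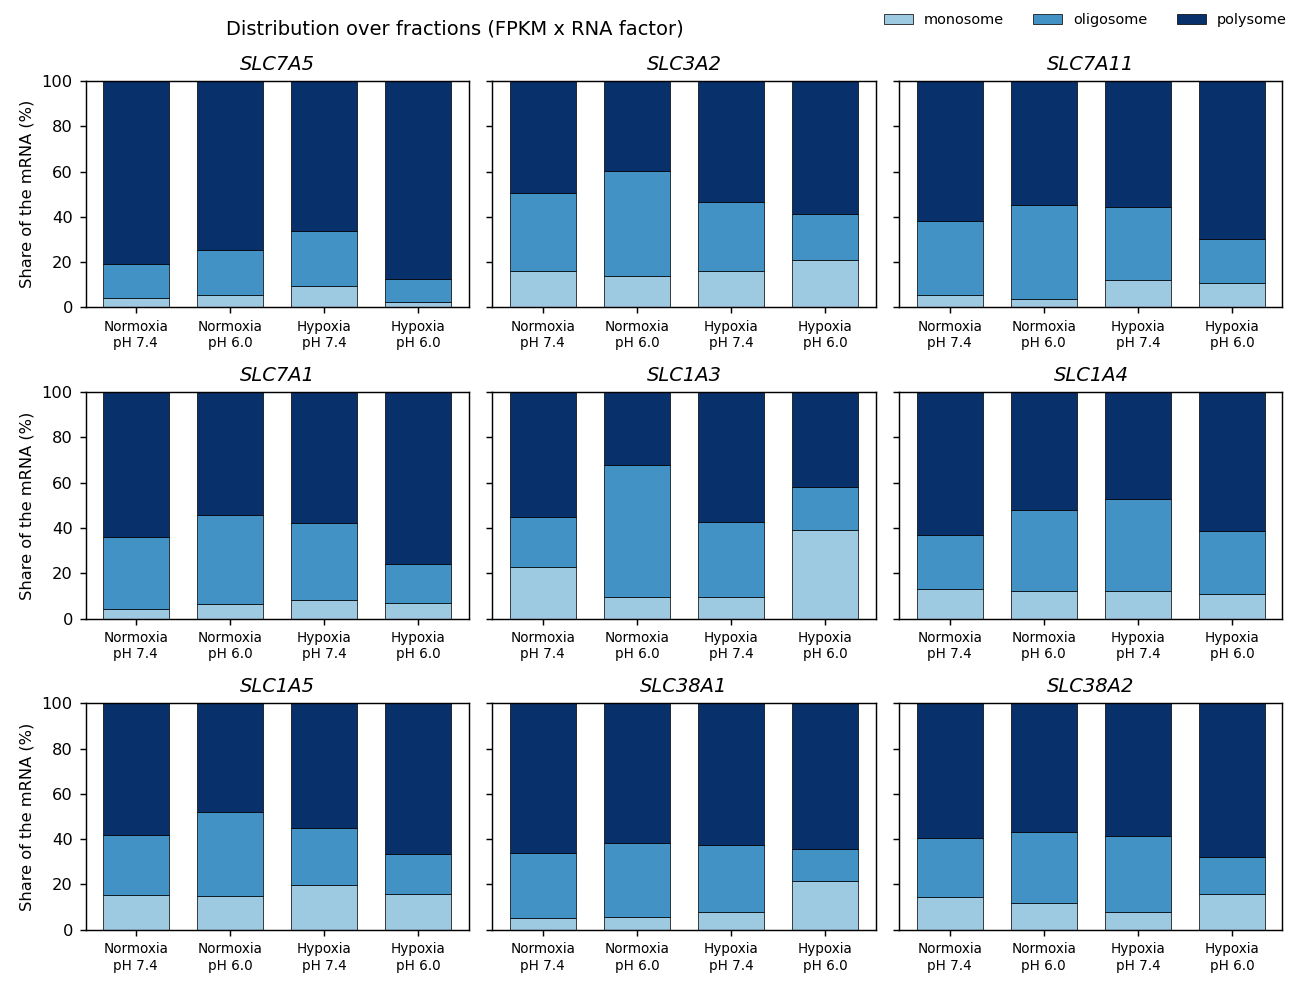
Share of each mRNA (y axis, percent) recovered in the monosome, oligosome and polysome fractions in the 4 conditions (x axis), from FPKM multiplied by the authors' RNA factor of the library, 1 library per segment. The polysome share of SLC7A5 is largest in acidotic hypoxia (87.6%), and the monosome share of SLC1A3 and SLC38A1 is largest in the same condition (39.3% and 21.5%).

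When FPKM was multiplied by the authors' RNA factors, the fractions could be read as shares of each mRNA. SLC7A5 had 80.8% of its mRNA in polysomes in neutral normoxia, 74.7% in acidotic normoxia, 66.4% in neutral hypoxia and 87.6% in acidotic hypoxia. Of all RNA, polysomes held 50.95%, 47.2%, 47.3% and 56.1% in the same conditions, so SLC7A5 was above the share of total RNA in each. SLC3A2 was below that share in acidotic normoxia, at 39.6%, near it at 49.4% in neutral normoxia and 58.9% in acidotic hypoxia, and above it at 53.4% in neutral hypoxia. SLC38A1 kept 61.7% to 66.1% in polysomes in all 4 conditions, while its monosome share was 5.35%, 5.41% and 8.04% in the first 3 conditions and 21.5% in acidotic hypoxia. SLC1A3 was the member with the smallest polysome shares at acid pH, 32.1% in normoxia and 42.02% in hypoxia, against 55.1% and 57.5% at neutral pH. Its monosome share in acidotic hypoxia was 39.3%.

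Across the 12 libraries, the members followed each other only in part. After the library median was subtracted, 20 of the 36 pairs of members had a positive Pearson r of log2 FPKM. The highest were SLC7A1 with SLC38A1 (0.74), SLC1A4 with SLC1A5 (0.72) and SLC7A11 with SLC7A1 (0.70). The lowest were SLC1A3 with SLC1A4 and with SLC1A5 (both -0.72) and SLC1A3 with SLC7A5 (-0.69). SLC7A5 and its partner SLC3A2 were at 0.13, and the neighbours SLC38A1 and SLC38A2 at 0.07. These values describe 12 libraries that share cultures across fractions, and fractions alone can make 2 mRNAs alike.

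The loci most like each member over the same 12 libraries were taken from 5284 candidates with a mean of at least 5 FPKM, 3 for each gene by Pearson r. SLC1A5 was most like ASNS, the asparagine synthetase (r = 0.92), SMAD3 (0.90) and RDX (0.88). SLC38A2 was most like LRRC17 and FOXD1 (both 0.96) and the growth factor VEGFC (0.92), and Spearman's rho gave the same 3. SLC7A5 was most like RNF19B, FDXR and PAAF1 (all 0.92). SLC38A1 was most like NIP7, EIF5AL1 and RQCD1 (all 0.94), and SLC7A1 most like ZC3H7B, TTYH3 and CYB561A3 (all 0.96). For the others the 3 were EREG, RFX5 and TSC22D1 for SLC7A11 (0.88 to 0.83), SPDL1, GEM and RNF145 for SLC1A3 (0.84 to 0.79), ARRDC4, PLAU and RELB for SLC1A4 (0.89 to 0.87), and CSE1L, MATR3 and MIOS for SLC3A2 (0.81 to 0.73). Ranking by Spearman's rho shared 2 of the 3 for SLC1A4 and SLC1A5, 1 of the 3 for SLC7A5, SLC3A2, SLC7A1 and SLC1A3, and 0 of the 3 for SLC7A11 and SLC38A1, so most of these names depend on the measure.

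ASNS itself, a standard ATF4 target, was at 8.97, 4.16 and 8.27 FPKM in the monosomes, oligosomes and polysomes of neutral normoxia and at 45.0, 21.2 and 41.5 in acidotic normoxia. In neutral hypoxia it was at 16.0, 5.17 and 10.8 FPKM, and in acidotic hypoxia at 62.2, 41.02 and 44.3. Acid thus went with higher ASNS in all fractions, by 2.13 in normoxia and 2.04 in hypoxia on the log2 steady-state scale, beyond any member in normoxia. ATF4 mRNA had a steady-state level of 139 FPKM in neutral normoxia, 141 in acidotic normoxia, 125 in neutral hypoxia and 222 in acidotic hypoxia. Its polysome to monosome ratio was 0.253, 0.264, 0.101 and 0.268 in the same order. The ATF4 efficiency changes were 0.11 and 1.42 for acidosis in normoxia and in hypoxia. They were -1.23 and 0.05 for hypoxia at neutral and at acid pH. Of 24 amino acid stress response genes that could be compared, 2 were higher in acidosis in both pairs (ASNS and the serine synthesis enzyme PHGDH, at 1.34 and 1.12) and 0 were lower, beside 1.22% and 0.238% of all compared loci, with a median change of 0.38. In hypoxia 3 of 24 were higher (DDIT4, PHGDH and VLDLR) and 1 was lower, PSAT1, another serine synthesis enzyme, at -1.17 and -1.38, beside 2.16% and 0.91% of compared loci.

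Of 43 other amino acid transporter genes, 12 could be compared, 23 were below a mean of 1 FPKM, 6 lay in loci that name several genes and 2 lay in several loci. In acidosis 0 of the 12 were higher and 0 lower, beside 1.22% and 0.238% of all compared loci, with a median change of -0.33. In hypoxia 1 of 12 was higher and 0 lower, beside 2.16% and 0.91% of all compared loci, with a median of -0.12. The gene was SLC6A6, the taurine transporter. Its monosome, oligosome and polysome values were 4.29, 6.49 and 8.63 FPKM in neutral normoxia and 11.9, 8.45 and 12.7 in acidotic normoxia. They were 20.8, 22.4 and 37.8 FPKM in neutral hypoxia and 24.7, 32.01 and 54.5 in acidotic hypoxia. Every hypoxic library was above every normoxic one, with steady-state changes of 1.95 and 1.80. The share of all loci with such a separation was not counted. In acidotic hypoxia against neutral normoxia, 1 of the 12 was higher (SLC6A6, 2.33) and 3 were lower, where 11.9% and 12.5% of all compared loci were. The 3 were SLC38A7, a lysosomal glutamine transporter (-1.79), SLC7A6, a cationic and neutral amino acid exchanger that also pairs with SLC3A2 (-1.52), and PQLC2, a lysosomal carrier of cationic amino acids (-1.44).

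Genes that use glutamine, glutamate or cystine were also set beside the transporters. Of 14 compared, 1 (ASNS) was higher and 0 lower in acidosis, beside 1.22% and 0.238% of all compared loci. In hypoxia 0 were higher and 0 lower, beside 2.16% and 0.91%. Efficiency in hypoxia was lower for 2 of 14, the glutathione peroxidase GPX4 (-1.10 and -0.85) and GCLM, a subunit of the enzyme that starts glutathione synthesis (-0.59 and -0.72), where 10.1% of all compared loci were, so this count is near the background. In a list of transcription factors known to act on these transporters, 6 of 10 could be compared. At the mRNA level 0 were higher or lower in acidosis or in hypoxia, beside the same shares of all compared loci. Efficiency in hypoxia was higher for 2 of these 6, where 8.78% of all compared loci were. The 2 were EPAS1, an oxygen-regulated factor (1.53 and 2.76), and MYC (0.82 and 1.04). Efficiency in acidosis was higher for 1 of 6, ATF3 (0.96 and 0.61), where 5.73% of loci were. For genes other than the members, efficiencies are given over monosomes only. The hypoxic state was visible in the hypoxia target genes, of which 9 of 10 compared were higher in both pairs, beside 2.16% of all compared loci. The median change over all 10 was 2.79.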

How the data were processed

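RNA from U87MG cells was fractionated by ribosome density and sequenced as 12 libraries, 1 per condition and fraction. Per the submitters' processing notes, the build was GRCh38 and the tools included STAR 2.5.0, Cuffnorm, Cufflinks 2.2.1 and bcl2fastq. The kit was stranded, per the labels' protocols. Not given in the sources used here were the role of each tool, the annotation, the use of strand in counting and the Cuffnorm normalization. The authors deposited FPKM per assembled locus and, per the file headers, a signal equal to FPKM multiplied by 1 factor per library for RNA concentration. The factor of each library was recovered as the ratio of these columns. The totals, efficiencies and gene names beside the scaled signal, and 12 further per-sample columns, were not used.

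From the deposited FPKM, steady-state mRNA and translation efficiency were computed with Python 3.11.15 and numpy 2.4.6, with a pseudocount of 1 FPKM. Changes were centred on the median of 12201 loci, those with a mean of at least 1 FPKM after 4726 small RNA loci were removed. The depth behind a value was estimated from the FPKM steps of single fragments and the shortest complete coding transcript in GENCODE release 29. Counting SEs follow from it, cover counting error only and are made smaller by the pseudocount where FPKM is low.

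The members and lists were chosen with earlier results of these data known. All 9 members are named. So are other transporters past the fold rule, up to 4 genes with the largest mean change of each other list, and the 3 loci with the highest Pearson r for each member. ATF4, PSAT1 and VLDLR were added after their values were seen. The call rules were tested on simulated fragments with counting error as the only noise. Such data cannot show how the calls would vary between cultures. The comparisons were also run under 13 alternative settings. Where acidotic and neutral, or hypoxic and normoxic, libraries did not overlap, the share of all loci or gene pairs doing so was not counted.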

Additional observations from a re-analysis of the deposited data

Results flagged for a closer look

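SLC7A5 had opposite changes in translation efficiency with acid at the 2 oxygen levels, -0.68 in normoxia and 2.43 in hypoxia, a difference of 3.11 on the log2 scale. The same 4 conditions gave -0.997 for hypoxia at neutral pH and 2.09 for hypoxia in acidosis, a difference of 3.08. Set against oligosomes in place of monosomes, these 4 changes were 0.05, 0.90, -0.73 and 0.09. SLC1A5 efficiency also differed in direction with acid, at -0.60 and 0.68, a difference of 1.28. SLC7A1 efficiency differed in direction with hypoxia, at -0.60 and 0.88, a difference of 1.48. Against oligosomes these were -0.03 and 0.42, so neither passed 1.5-fold. SLC3A2 mRNA was lower with acid in all 3 fractions in normoxia and higher in all 3 in hypoxia, with steady-state changes that differed by 1.02. The monosome change in normoxia was only -0.05, so the direction in that fraction is weak. None of these differences was tested, since each condition and fraction has 1 library. Efficiencies past 1.5-fold in opposite directions were found for 6.79% of compared loci with acidosis and for 6.52% with hypoxia, and mRNA changes opposite in all fractions with acidosis for 5.98%.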

How the results depend on the processing

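No paired analysis was possible because the labels give no replicate numbers and each condition and fraction has 1 library. Of 900 values of single members under 13 alternative settings, 751 kept their direction and their side of the fold bound. Another 51 no longer passed it and 44 newly passed it. A further 44, below the bound before the setting was altered, changed sign, and 10 past the bound reversed. Of the 44 that changed sign, SLC1A3 efficiency with acidosis in normoxia went from 0.21 to -1.20 over oligosomes and so ended past the bound. With efficiency taken as polysome over oligosome, 8 reversed: SLC7A5 with acidosis in normoxia (0.053), SLC1A5 (-0.043), SLC38A1 (0.096) and SLC38A2 (0.36) with acidosis in hypoxia, SLC1A3 (-0.22) and SLC38A2 (-0.17) with hypoxia at neutral pH, SLC1A4 with hypoxia in acidosis (-0.40), and SLC38A1 in acidotic hypoxia against neutral normoxia (0.086). On the RNA-factor scale, where changes were not centred, SLC7A1 (-0.048) and SLC38A2 (-0.10) reversed with hypoxia in acidosis. The median locus was at -0.61 in that comparison on the same scale, below both values. The cause of the reversals over oligosomes was not tested.

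Counts of members moved as follows. In acidosis, 1 mRNA (SLC1A3) counted as lower without the oligosome fraction. In hypoxia, 2 mRNAs (SLC38A1 and SLC7A11) counted as lower with a pseudocount of 0.1. In acidotic hypoxia against neutral normoxia, 1 mRNA (SLC7A5) counted as higher on the RNA-factor scale, with unweighted fractions or without the polysome fraction, and 1 (SLC38A1) as lower with a pseudocount of 5. There, 3 counted as lower with a pseudocount of 0.1 (also SLC1A3 and SLC7A11) or on the RNA-factor scale (also SLC1A3 and SLC7A1). Without the polysome fraction, 2 did, SLC38A1 and SLC7A1, and the SLC1A3 call was lost. Efficiency in hypoxia was higher for 0 members on the RNA-factor scale or over oligosomes. It was lower for 1 (SLC7A11) with all loci or without centring, and for 2 (SLC7A11 and SLC38A1) on the RNA-factor scale. In acidotic hypoxia against neutral normoxia, efficiency was higher for 1 member (SLC7A5) with a pseudocount of 0.1 or 5, with all loci, without centring or on the RNA-factor scale, for 0 over oligosomes, and for 4 (also SLC1A5, SLC1A4 and SLC38A2) with polysomes and oligosomes taken over monosomes. It was lower for 2 (SLC38A1 and SLC1A3) with a pseudocount of 0.1 and for 4 (also SLC7A1 and SLC7A11) on the RNA-factor scale. Over oligosomes the 1 lower member was SLC1A3 in place of SLC38A1. Depth limits SLC7A11 and SLC1A4 most, whose lowest values stood on about 11.3 and 6.63 fragments.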
